A study of Mus musculus with 22 samples.

Results

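The genes described here were nearly silent in the islets of every C57 mouse and expressed in islets of mice on the background that the labels call Mixed. A gene was taken when its abundance was below 1 TPM (a share of the library's transcripts, scaled by gene length) in all 11 C57 samples and at least 5 TPM in at least 2 of the 5 Mixed WT samples. Of 57010 rows, 34 met these limits. Of these, 6 whose symbol ends in -ps and 1 whose symbol starts with Kcn were set aside, which left 27 genes. With the backgrounds exchanged in the rule, 0 genes met it. The exchanged rule asks for all 11 Mixed mice below 1 TPM, and the Mixed mice differed among themselves, as described below. The 2 counts are therefore not like for like. The C57 and Mixed WT values chose the genes, so their levels in those groups are given as a description. The Mixed Het samples were not used in the choice.

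The samples were polyadenylated RNA from the islets of male mice at 5.5 weeks of age, the insulin-producing cell clusters of the pancreas. Each library came from 1 mouse. Mice were wild type (WT) or heterozygous (Het) for the S64F change in MAFA, a transcription factor of beta cells. Each background was represented by 5 WT and 6 Het animals, and the labels do not state which strains lie behind the Mixed one. Libraries were numbered group after group, so library order and group cannot be told apart. Nothing beyond 1 mouse per library is stated about litters or cohorts.

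Most of these genes carry a close copy elsewhere in the genome. A processed pseudogene arises when a messenger RNA is reverse transcribed and inserted at another place, without the introns of its parent and usually without its promoter. Such a copy can be so like its parent that a short read fits both, and the level given to each then depends on how reads were aligned and on how the reference genome sequence differs from that of the animal. How reads that fit several places were counted is not given in the sources used here, so the levels of genes with a near-identical copy are uncertain.

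By GENCODE M21 types, matched by identifier for 27 of 27 genes, 14 were processed pseudogenes and 1 was an unprocessed pseudogene. A further 9 were protein coding, 2 were antisense transcripts and 1 was a long intergenic non-coding RNA. Pseudogenes thus made up 55.6% of the genes. They made up 1.53% of the 10678 annotated rows with at least 5 TPM in at least 2 Mixed WT mice, and 33.5% of the annotated rows below 1 TPM in all C57 samples. By symbol, 17 had a provisional name (Gm with a number), 1 had a clone name (BC023719) and 1 was a zinc finger gene (Zfp990). The other 8 fell in no listed gene class.

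The longest annotated transcript of each gene was compared with all GENCODE M21 transcripts by BLAST. For 22 genes, a row of the table outside the 27 matched at 95% identity or more over at least 80% of the transcript. The matching row with the highest mean in C57 is called the nearest copy below, which need not be the closest in sequence. The number of matching rows was 26 for Gm8210 and for Gm13841, 10 for Gm6724, 7 for Gm8741 and 3 for Gm14165. It was 2 for Gm7993 and for Gm4735, and 1 for the others. Identity ran from 95.06% to 100%, with a median of 99.3%, and was at least 99% for 14 genes. The 22 genes had 19 different nearest copies, and 20 of the 22 lay on another chromosome than their copy. The genes without such a copy were Lbp, Masp2, Prodh2, Zfp990 and Gm48837. The 4 pairs of stretches of 80 bases, taken from the coding part of the nearest copy in GENCODE M21 (GRCm38), show how little separates the pairs. They are written 5′ to 3′ in the direction of transcription, and capitals mark the bases at which the members of a pair differ. The Ahcyl transcript lies on chromosome 16 and Ahcy on chromosome 2, Hmga1b on chromosome 11 and Hmga1 on chromosome 17, Gm4735 on chromosome 2 and Eno1 on chromosome 4, and Gm3375 on chromosome 7 and Psmb5 on chromosome 14.
Ahcyl: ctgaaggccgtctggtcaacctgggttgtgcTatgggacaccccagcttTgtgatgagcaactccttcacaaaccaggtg
Ahcy: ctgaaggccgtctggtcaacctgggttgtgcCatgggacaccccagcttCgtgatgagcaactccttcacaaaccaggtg
Hmga1b: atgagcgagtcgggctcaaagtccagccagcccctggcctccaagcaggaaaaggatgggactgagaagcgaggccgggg
Hmga1: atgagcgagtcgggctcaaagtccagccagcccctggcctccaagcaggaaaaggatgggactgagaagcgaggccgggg
Gm4735: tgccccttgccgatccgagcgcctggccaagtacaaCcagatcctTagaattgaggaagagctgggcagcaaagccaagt
Eno1: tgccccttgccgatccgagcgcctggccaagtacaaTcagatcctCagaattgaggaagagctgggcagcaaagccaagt
Gm3375: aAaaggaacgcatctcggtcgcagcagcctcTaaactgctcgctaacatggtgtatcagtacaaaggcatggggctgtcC
Psmb5: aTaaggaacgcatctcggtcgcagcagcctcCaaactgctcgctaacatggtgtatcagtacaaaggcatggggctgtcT
Ahcyl and Ahcy differed at 2 of these 80 bases, Gm4735 and Eno1 at 2, and Gm3375 and Psmb5 at 3. Hmga1b and Hmga1 were identical over theirs.

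Over the 11 Mixed mice most values of the 27 genes lay well above or well below 1 TPM. A gene is called on in a mouse at 1 TPM or more. Of 297 values, 232 were on, with a median of 10.2 TPM, and 65 were off, with a median of 0.200 TPM. Of the 232 on values, 200 were at 5 TPM or more and 5 lay between 1 and 2 TPM. Of the off values, 12 lay between 0.5 and 1 TPM. The 297 values of the C57 mice had a median of 0.150 TPM and a maximum of 0.859 TPM. Off values and C57 values both lie below 1 TPM by definition, so a likeness between them is partly fixed in advance. For some genes, such as Gm46223, off values lay above the highest C57 value of the same gene. In Mixed WT 118 of 135 values were on, and in Mixed Het 114 of 162.

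**Figure D1:**
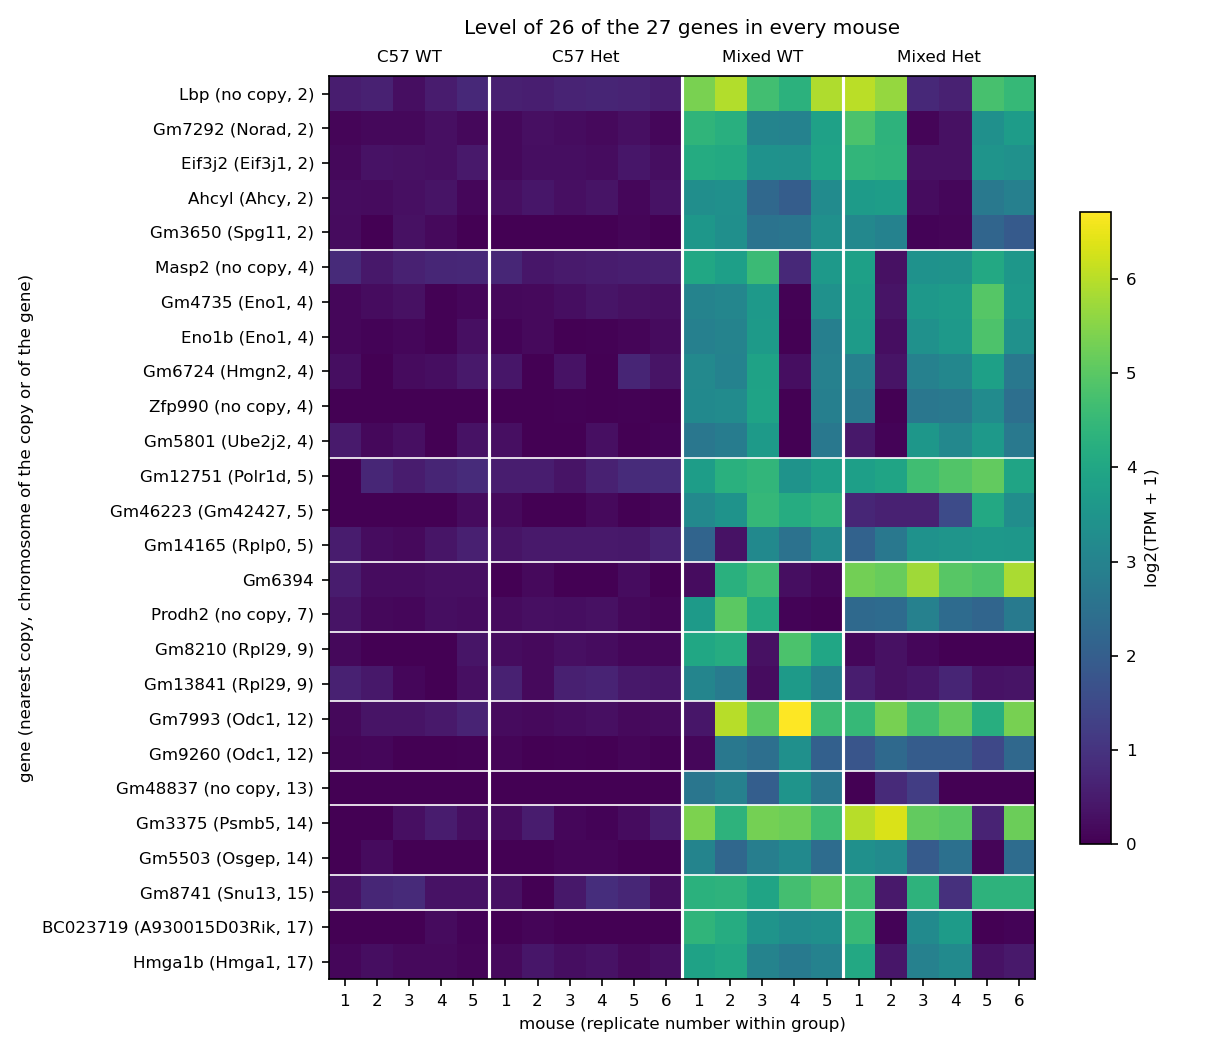
Level of 26 of the 27 genes (rows) in all 22 mice (columns, grouped by background and genotype) as log2(TPM + 1). Row names give the nearest copy and the chromosome of that copy, or of the gene itself where it has none, and 1 row gives the gene alone. All C57 columns are dark, and the off mice within the Mixed columns line up between genes of most chromosome blocks.

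Gm12751 was the only gene on in all 11 Mixed mice, and 26 were on in some and off in others. Of these, 12 were on in every Mixed WT mouse and off in some Mixed Het mice, 5 were off in some WT and on in every Het mouse, and 9 were off in some of both. The number of genes on in a mouse ranged from 19 to 25 in Mixed WT and from 14 to 22 in Mixed Het. Mixed WT 4, with 19, and Mixed Het 2, with 14, had the fewest in their groups. No gene was on in all mice of one genotype and off in all of the other. Gm8210, Gm13841 and Gm48837 came within 1 mouse of it. Gm8210 and Gm13841 were on in 4 Mixed WT mice and in 0 of 6 Mixed Het mice, and Gm48837 was on in all 5 Mixed WT mice and in 1 of 6 Mixed Het mice.

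In Mixed Het, which the rule did not use, 23 of the 27 genes (85.2%) reached 5 TPM in at least 2 of 6 mice. Among all 37384 rows below 1 TPM in every C57 sample, 31 did so (0.0829%), and among the rows outside the 27 genes it was 8 of 37357. Of the 31, 74.2% were among the 27. The 4 of the 27 that did not were Gm9260, Gm8210, Gm13841 and Gm48837.

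Of the 27 genes, 25 passed the filter for testing (1 TPM in at least 5 of 22 samples), and they could pass it only through their Mixed values. In limma's test of Mixed Het against C57 Het, 24 of these 25 had an adjusted p below 0.05 and were higher in Mixed, against 13.3% of all 16756 genes tested. The C57 Het side was held below 1 TPM by the rule, so this count is no independent support. The median difference was 2.34 on the log2(TPM + 1) scale, which understates changes of low genes, against 0.02 over all genes. Gm48837 did not pass, with a difference of 0.34 ± 0.21 (SE) and an adjusted p of 0.285. The adjusted p of BC023719 was 0.0269 and that of Hmga1b 0.0218. In a limma fit of the Het groups alone they were 0.0731 and 0.0588, without Mixed Het 1 they were 0.0680 and 0.0545, and without Mixed Het 4 they were 0.0675 and 0.0541. Without Mixed Het 3, that of BC023719 was 0.0611.

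In 2 sets of 5 genes, every gene had the same on mice and the same off mice. Lbp, Gm7292, Eif3j2, Ahcyl and Gm3650 were off in Mixed Het 3 and Mixed Het 4 and on in the 9 other Mixed mice. Lbp lies on chromosome 2 itself. The others lie on chromosomes 6, 16 and 18, and their nearest copies, Norad, Eif3j1, Ahcy and Spg11, all lie on chromosome 2.

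Lbp, which encodes the plasma protein that binds bacterial lipopolysaccharide, was the most abundant of this set. Its levels in Mixed WT 1 to 5 were 40.2, 60.2, 24.6, 18.9 and 59.5 TPM. In Mixed Het it was 0.725 TPM in mouse 3 and 0.546 TPM in mouse 4, and between 21.6 and 63.95 TPM in the 4 others. The off mice were thus near the C57 level, where the highest value was 0.713 TPM. Lbp differed by 3.09 ± 0.69 between Mixed Het and C57 Het (log2, SE; limma adjusted p = 0.00318). The rule held its C57 Het values below 1 TPM, so this p is no independent support, and the Mixed Het mean spans on and off mice.

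Ahcyl is a close relative of Ahcy, the enzyme that hydrolyses S-adenosylhomocysteine after methyl transfer. Its levels in Mixed WT were 9.05, 9.40, 3.79, 2.93 and 8.49 TPM, and in Mixed Het they ran from 0.0827 to 12.5 TPM with a median of 6.12 TPM. Eif3j2 is the second gene for subunit J of the translation factor eIF3. It had 16.6, 16.04, 9.69, 9.58 and 13.9 TPM in Mixed WT, and 0.234 and 0.236 TPM in Mixed Het 3 and 4 against at least 9.61 TPM in the other Het mice. Mice with Ahcyl low were also those with Eif3j2 low. Gm7292, a copy of the Pumilio-binding RNA Norad, had 20.2, 17.8, 7.17, 6.85 and 13.4 TPM in Mixed WT. In Mixed Het it had 0.0630 to 26.97 TPM. Gm3650, a copy of part of the hereditary spastic paraplegia gene Spg11, had 10.8, 9.22, 4.89, 5.16 and 9.27 TPM in Mixed WT, and its Het levels were 0.0533 to 7.79 TPM. The 5 highest mice were the same in all 5 genes, namely Mixed WT 1, 2 and 5 and Mixed Het 1 and 2. These 5 genes therefore shared a graded pattern as well as the off mice.

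The other set involves chromosome 4. Masp2, Gm4735, Eno1b, Gm6724 and Zfp990 were off in Mixed WT 4 and Mixed Het 2 and on in the remaining 9 Mixed mice. Masp2 and Zfp990 lie on chromosome 4. Gm4735 on chromosome 2 and Eno1b on chromosome 18 are copies of Eno1, and Gm6724 on chromosome 18 is a copy of Hmgn2, and both parents lie on chromosome 4.

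Masp2, a serine protease that starts the lectin pathway of complement, had 14.99, 12.9, 22.8, 0.705 and 11.4 TPM in Mixed WT 1 to 5. Its Mixed Het levels ran from 0.222 TPM in mouse 2 to 15.7 TPM, with a median of 10.4 TPM. Masp2 overlaps Tardbp on the opposite strand, and whether counting used strand is not given in the sources used here. Zfp990, a zinc finger gene, had 8.06, 8.41, 14, 0 and 6.46 TPM in Mixed WT, was listed at 0 in Mixed Het 2 and lay between 4.5 and 8.5 TPM in the other Het mice. In C57 it did not exceed 0.0363 TPM. Zfp990 and Masp2 were thus off in the same mice without having a near copy.

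Eno1b and Gm4735 share Eno1, the glycolytic enolase, as nearest copy, so their levels may draw on the same reads. Eno1b had 6.62, 6.99, 11.7, 0 and 6.46 TPM in Mixed WT. Gm4735 had 6.99, 7.47, 11.4, 0.0365 and 9.59 TPM. Both had their highest value in Mixed Het 5, at 27.9 and 30.1 TPM. Gm6724, a copy of the nucleosome-binding protein gene Hmgn2, also stood high there with 13.2 TPM, close to its 13.5 TPM in Mixed WT 3. Gm5801, a copy of the ubiquitin-conjugating enzyme gene Ube2j2 on chromosome 4, was off in the same 2 mice and also in Mixed Het 1, where it had 0.342 TPM. Its Mixed WT levels were 5.30, 6.08, 11.8, 0 and 5.43 TPM.

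**Figure D2:**
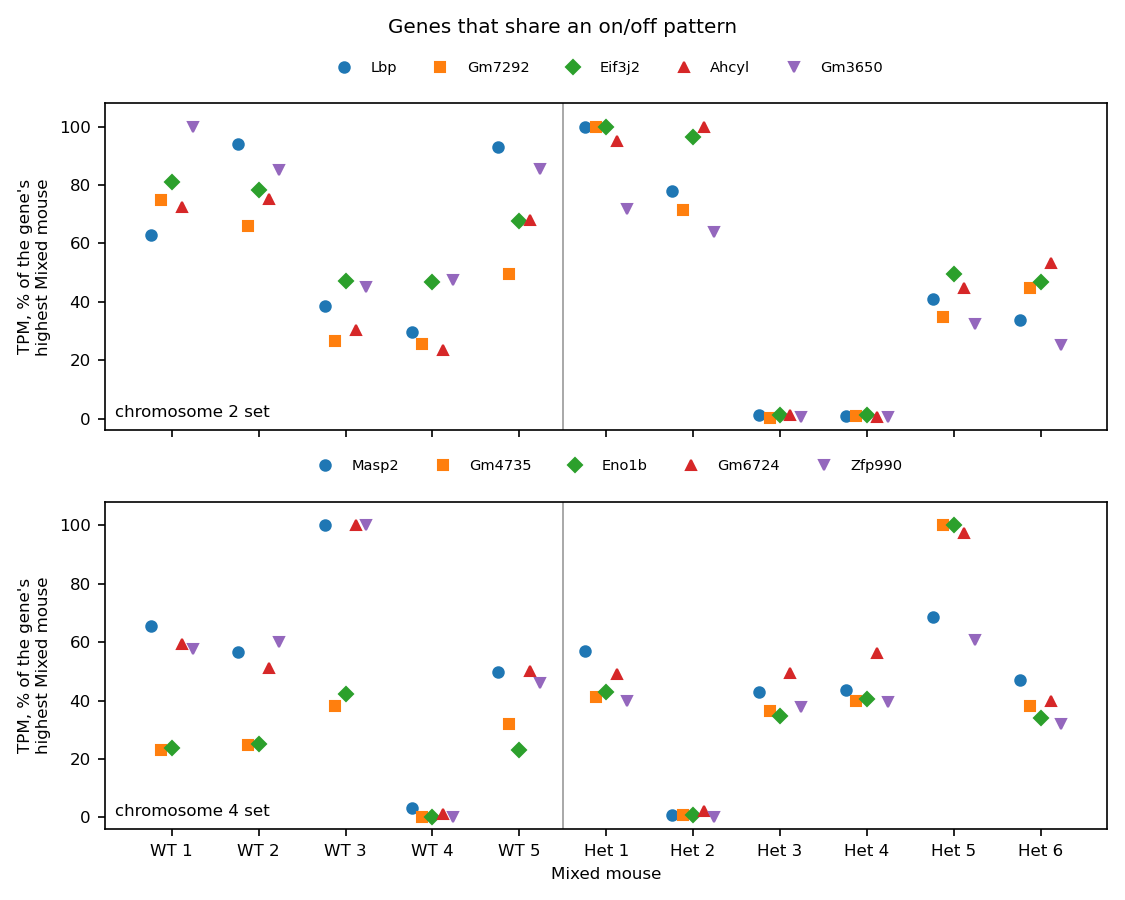
Level of each gene in each Mixed mouse as a percentage of its own highest Mixed value, for the set off in Mixed Het 3 and 4 (top) and the set off in Mixed WT 4 and Mixed Het 2 (bottom). Points of one mouse are spread sideways for clarity. In both panels the 5 genes drop together in the same 2 mice.

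Smaller sets showed the same arrangement. BC023719 and Hmga1b, whose nearest copies lie on chromosome 17, were off in Mixed Het 2, 5 and 6. BC023719, an antisense transcript that overlaps the class Ib major histocompatibility gene H2-T10 on the opposite strand, had 19.9, 16.9, 10.2, 8.66 and 9.16 TPM in Mixed WT. Hmga1b, a copy of the chromatin protein gene Hmga1, had 13.6, 15.4, 7.03, 5.79 and 6.89 TPM. Both had Mixed Het 1, Mixed WT 1 and Mixed WT 2 as their 3 highest mice, with 21.98 TPM for BC023719 and 15.7 TPM for Hmga1b in Mixed Het 1. Hmga1b itself lies on chromosome 11.

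Gm3375 and Gm5503 were off only in Mixed Het 5, with 0.580 and 0.0751 TPM. Their nearest copies on chromosome 14 are Psmb5, a catalytic subunit of the proteasome, and Osgep, an enzyme of transfer RNA modification. Gm3375 was among the most abundant of the 27 genes, with 41.4, 19.3, 38.8, 36.5 and 23.97 TPM in Mixed WT. In the 5 other Mixed Het mice it had 30.8 to 79.5 TPM. Gm5503 had 7.19, 3.77, 6.34, 8.19 and 4.19 TPM in Mixed WT, and at most 9.31 TPM in Mixed Het.

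Gm7993 and Gm9260, both copies of the polyamine synthesis gene Odc1 on chromosome 12, were off only in Mixed WT 1. Gm7993 had 0.316, 62.6, 31.9, 104 and 23.2 TPM in Mixed WT. Its Het range was 17.6 to 39.8 TPM. Gm9260 was lower, with 0.0863, 5.45, 4.45, 9.34 and 3.16 TPM in Mixed WT and a Het range of 1.76 to 3.93 TPM. Both were highest in Mixed WT 4 and next highest in Mixed WT 2. They match Odc1 at 95.7% and 95.1%, the 2 lowest identities among the 22 genes.

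Gm8210 and Gm13841, copies of the ribosomal protein gene Rpl29 on chromosome 9, were on in Mixed WT 1, 2, 4 and 5 only. Their annotated transcripts are both 483 bases long, and each matched Rpl29 at 99.4% over that length. The levels of Gm8210 and Gm13841 may thus draw on the same reads. Gm8210 had 15.05, 16.9, 0.241, 27.3 and 14.8 TPM in Mixed WT, and no Het mouse exceeded 0.228 TPM. Gm13841 had 7.40, 5.95, 0.161, 11.7 and 6.85 TPM, and at most 0.627 TPM in Mixed Het. Both were highest in Mixed WT 4. They failed the filter and were not tested.

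Several other genes each had a pattern of their own. Gm6394, a processed pseudogene on chromosome 3, was off in Mixed WT 1, 4 and 5, at no more than 0.200 TPM, and had 18.3 and 23.9 TPM in the other two WT mice. In Mixed Het it was on in all 6 mice, from 27.8 to 57.8 TPM with a median of 36.3 TPM. Prodh2, a mitochondrial enzyme of hydroxyproline breakdown encoded on chromosome 7, was off in Mixed WT 4 and 5, at 0.0387 and 0.0179 TPM. It had 11.6, 31.4 and 16.4 TPM in Mixed WT 1, 2 and 3, and from 3.58 to 6.73 TPM in Mixed Het. Both genes were thus off in Mixed WT 4 and 5 and on in all Het mice.

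Gm48837, an antisense transcript opposite Ankrd55 on chromosome 13, was on in all 5 Mixed WT mice with 5.19, 6.72, 3.0, 10.2 and 5.36 TPM. In Mixed Het only mouse 3 reached 1 TPM, with 1.33 TPM, and 3 mice were listed at 0. Gm46223, whose nearest copy Gm42427 was itself below 1 TPM in every mouse, had 8.0, 9.9, 21.4, 16.99 and 19.1 TPM in Mixed WT. In Mixed Het it ran from 0.530 to 15.6 TPM with a median of 1.29 TPM and was off in mice 1, 2 and 3. Its levels in these off mice lay above its highest C57 value of 0.146 TPM, and Mixed Het 4 had 1.92 TPM. Gm8741, a copy of the small ribonucleoprotein gene Snu13, had 18.5, 19.2, 14.1, 25.3 and 32.2 TPM in Mixed WT and was off in Mixed Het 2 and 4. Its 0.901 TPM in Mixed Het 4 lay just below the limit for on.

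Gm14165, a copy of the ribosomal stalk gene Rplp0, had 3.50, 0.262, 8.04, 4.75 and 8.48 TPM in Mixed WT and was off only in Mixed WT 2. In Mixed Het it ran from 3.36 to 11.04 TPM with a median of 10.05 TPM. Gm12751, whose transcript was 100% identical to part of Polr1d, a subunit shared by RNA polymerases I and III, had 12.4, 18.3, 20.4, 9.99 and 12.9 TPM in Mixed WT, and its Het range was 12.9 to 33.4 TPM. Gm12751 thus never fell near the C57 level. Gm8210 overlaps Fhl2 and Gm7292 overlaps 1700030F04Rik on the opposite strand. Gm14165 overlaps Gm14164, Eif3j2 overlaps Gm27325 and Eno1b overlaps AC150274.2 on the same strand.

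The patterns followed the chromosome of the nearest copy more than the chromosome of the gene. For genes with a copy the chromosome of that copy was taken, and for the 5 others their own, a definition made after the patterns were seen. Where several rows matched a gene, only the chromosome of the nearest copy as defined above was used. Among the 26 variable genes, 31 pairs shared a chromosome in this sense, and 24 of these pairs (77.4%) had the same on and off mice. Of the 294 pairs that did not share one, 0 had. Without pairs that share the same nearest copy, the count was 21 of 28 (75.0%). Of the 24 pairs, 10 came from the chromosome 2 set and 10 from the chromosome 4 set, so 2 sets of genes supplied most of them. Chromosomes 9, 12, 14 and 17 gave 1 each, and chromosomes 5 and 7 gave 0. By the chromosome of the gene itself, 3 of 22 pairs on one chromosome (13.6%) and 21 of 303 on different chromosomes (6.93%) had the same pattern.

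The median Spearman correlation over the 11 Mixed mice was 0.76 for the 33 pairs of genes with a shared chromosome of the copy, with a range from -0.17 to 0.98, and -0.02 for the 318 other pairs. It was 0.05 for the 3 pairs of chromosome 5. These values include the mice in which genes were off, so a shared on and off pattern enters them. Over only the mice in which both genes of a pair were on, for pairs with at least 6 such mice, the median was 0.64 for 32 pairs with a shared chromosome (-0.29 to 0.95) and -0.07 for 247 other pairs (-0.88 to 0.94). Of the 19 variable pairs that share their own chromosome but not that of the copy, 0 had the same pattern. These pairs reuse the same mice and libraries, and the values are a description. The 7 variable pairs that shared a chromosome in this sense but not a pattern included the 5 of Gm5801 with the chromosome 4 set and that of Gm46223 with Gm14165.

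The nearest copies were then examined in the same mice. They were found from sequence after the 27 genes were known. Across the 11 Mixed mice the Spearman correlation between gene and nearest copy had a median of -0.25 over 22 pairs and was below 0 in 14. These values pool WT and Het mice, so a difference between genotypes enters them. In limma's test of Mixed Het against Mixed WT, 11 of the 18 copies that passed the filter were higher and 1 was lower. Of all genes tested, 30.7% and 13.5% were. The part of genotype in the correlations was not tested. Because a pair may compete for the same reads, its 2 values are not independent measurements.

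Ahcy was low where Ahcyl was on. Its levels were 8.44, 8.61, 12.3, 12.7 and 7.41 TPM in Mixed WT, all below the lowest C57 value of 20.99 TPM. In Mixed Het 3 and 4, in which Ahcyl was off, Ahcy had 40.3 and 30.8 TPM, within or above the C57 range of 20.99 to 38.1 TPM. In the 4 Het mice with Ahcyl on, it had 11.8 to 20.05 TPM. The sum of Ahcy and Ahcyl was 16.6 ± 1.06 TPM (SD, n = 5) in the Mixed WT mice and 24.8 ± 4.06 TPM (SD, n = 5) in C57 WT, so the sum was lower too.

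Hmga1 showed the same arrangement with Hmga1b. It had 11.3, 14.6, 18.5, 14.3 and 15.5 TPM in Mixed WT. It reached 25.3 to 28.7 TPM in Mixed Het 2, 5 and 6, in which Hmga1b was off. In the 3 other Het mice it had 15.97 to 22.03 TPM. The C57 values ran from 19.3 to 32.0 TPM. Here the sum of both genes was similar on the 2 backgrounds, at 24.6 ± 3.73 TPM in the Mixed WT mice (SD, n = 5) and 22.3 ± 2.94 TPM in C57 WT (SD, n = 5). The sums of other pairs went either way. Mean sums in Mixed WT and C57 WT were 26.2 and 14.9 TPM for Eif3j2 with Eif3j1, and 46.2 and 28.1 TPM for Gm8741 with Snu13. They were 38.4 and 53.98 TPM for Gm4735 with Eno1, and 81.9 and 105 TPM for Gm6724 with Hmgn2.

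Rpl29, a protein of the large ribosomal subunit, varied widely among the Mixed WT mice. Its levels in Mixed WT were 122, 127, 214, 27.1 and 128 TPM. Mixed WT 3, in which Gm8210 and Gm13841 were off, was the highest, and Mixed WT 4, in which they were highest, was the lowest. In Mixed Het, with both copies off, Rpl29 ran from 285 to 324 TPM, and in C57 from 209 to 285 TPM. Gm8210 and Gm13841 together had 39.0 TPM in Mixed WT 4.

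**Figure D3:**
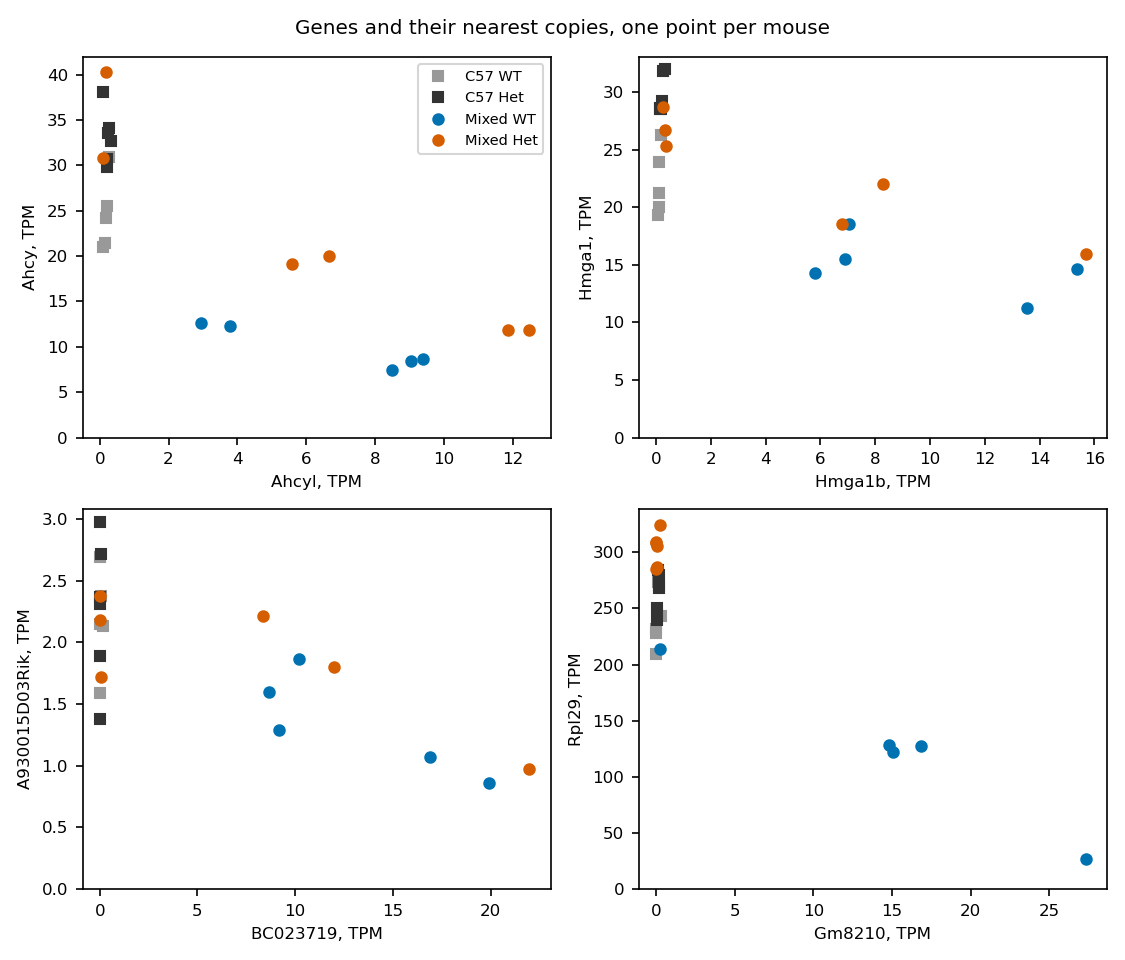
TPM of 4 genes (horizontal axis) and of their nearest copies (vertical axis), 1 point per mouse. Squares are C57 mice, which sit at the left edge, and circles are Mixed mice. Mixed mice with the gene off lie in or near the C57 range of the copy, and every mouse with Ahcyl on lies below all C57 mice in Ahcy.

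A930015D03Rik, the nearest copy of BC023719 and an antisense transcript of the same chromosome, was lower where BC023719 was high, with a Pearson correlation of -0.83 over the 11 Mixed mice. The value was -0.88 for Gm6724 and Hmgn2, -0.80 for Gm5801 and Ube2j2, and -0.78 for Eif3j2 and Eif3j1. Not all pairs ran in opposite directions. Gm4735 and Eno1b with Eno1 and Gm7292 with Norad lay near 0, at -0.02, -0.03 and -0.04. Gm5503 with Osgep had 0.30, Gm7993 and Gm9260 with Odc1 had 0.42 and 0.44, and Gm14165 with Rplp0 had 0.54. These values too pool WT and Het mice.

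Of the 19 nearest copies, 18 passed the filter. In limma's test of Mixed Het against C57 Het, 5 of the 18 were lower, against 7.13% of all genes tested, and 1 was higher, against 13.3%. The C57 values, Het among them, entered the choice of the copies and of the genes, so this count is no independent support. Lower were Hmgn2 by -0.71 ± 0.13 (log2 difference, SE), Ahcy by -0.68 ± 0.22, Spg11 by -0.41 ± 0.13, Hmga1 by -0.39 ± 0.12 and Polr1d by -0.23 ± 0.08, with adjusted p between 0.000739 and 0.0356. The median of the 18 was -0.08, against 0.02 over all genes. The count of 5 fell to 2 without C57 Het 4, Mixed Het 1 or Mixed Het 5, and to 3 without C57 Het 5, C57 Het 6, Mixed Het 2 or Mixed Het 3.

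Mixed WT against C57 WT is the contrast the rule used, and these values are given as a description. Here 7 of the 18 copies had an adjusted p below 0.05 and a lower level in Mixed WT, against 4.99% of all genes tested. They were Ahcy (-1.25), Rpl29 (-1.19), Eno1 (-0.78), Hmga1 (-0.56), Psmb5 (-0.53), Hmgn2 (-0.51) and Polr1d (-0.42, all log2 differences). The median of the 18 was -0.23, against 0.01 over all genes, and 14 of the 18 lay below 0. The difference between backgrounds itself differed between genotypes for 4 of the 18 copies, among them Psmb5, Eno1 and Rpl29 (limma interaction), against 7.36% of all genes tested.

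**Figure D4:**
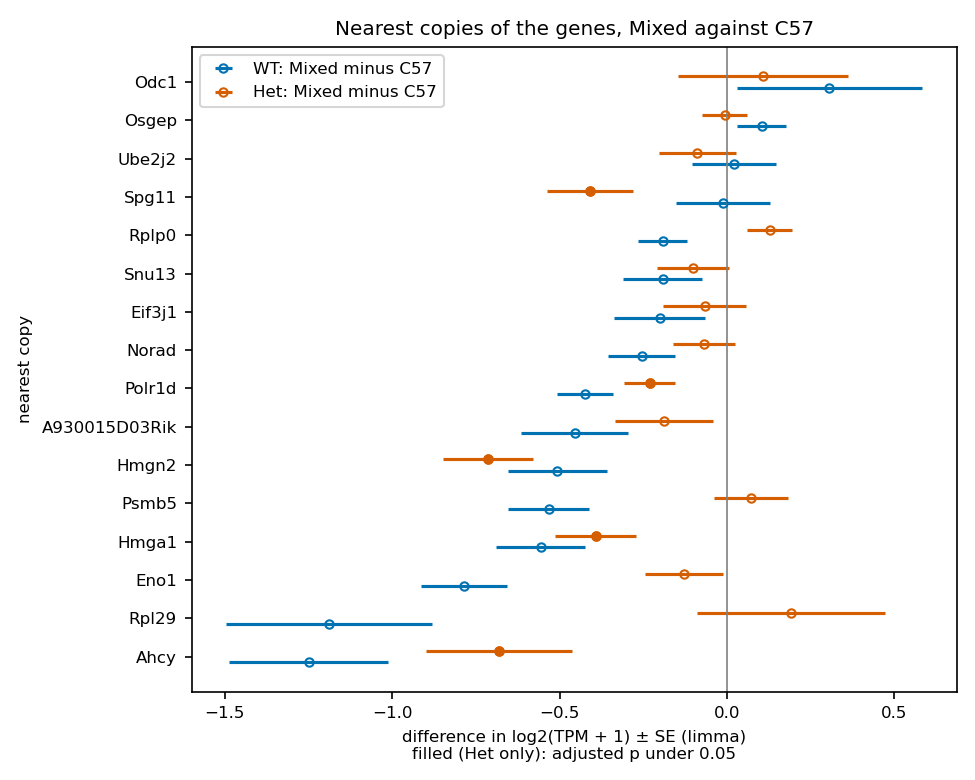
Difference in log2(TPM + 1) between Mixed and C57 for 16 of the 18 nearest copies that passed the filter, with SE from limma, for WT and Het mice. Filled points mark an adjusted p below 0.05 in Het, where the C57 values had entered the choice of the copies. WT points are a description. Most WT points lie left of 0, and Ahcy lies farthest left at -1.25.

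Between Mixed Het and Mixed WT, 1 of the 25 tested genes was higher (Gm6394) and 5 were lower (Gm48837, Gm46223, BC023719, Hmga1b and Gm3650), against 30.7% and 13.5% of all genes tested. The Mixed WT values chose the genes, and nothing is read from this count. In bulk tissue such as islets, fewer cells of a type and less RNA per cell cannot be told apart.

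Lbp, Masp2 and Prodh2 are known for high expression in liver, and a list of 7 liver genes was therefore examined after the data were seen. The summed level of the 7 genes was 1.16 to 3.40 TPM in Mixed WT and 1.504 to 4.13 TPM in C57 WT. In the Het mice it was 6.43 to 15.9 TPM on the Mixed and 2.23 to 6.05 TPM on the C57 background. The highest level in any sample was 10.57 TPM for Apoa1, 4.43 TPM for Alb, 2.45 TPM for Fgb, 0.674 TPM for Serpina1a, 0.324 TPM for Ahsg, 0.156 TPM for Fga and 0.0528 TPM for Cps1. Their part in the levels of Lbp, Masp2 and Prodh2 was not tested. The summed alpha cell markers ran from 60970 to 101600 TPM in Mixed Het against 14660 to 26360 TPM in Mixed WT, without overlap. The summed beta cell markers were lower without overlap, at 247800 to 339600 TPM against 398500 to 475300 TPM. The delta cell sums had medians of 26900 and 9046 TPM and overlapped slightly. The summed duct markers ran from 72.8 to 438 TPM in Mixed Het against 22.5 to 86.5 TPM in Mixed WT, and those of connective tissue from 38.4 to 179 TPM against 21.8 to 36.5 TPM. In C57 the alpha sums were 65830 to 109500 TPM in Het and 17350 to 52850 TPM in WT, also without overlap. The C57 duct sums were 66.9 to 190.8 TPM in Het and 20.4 to 55.6 TPM in WT. The C57 beta sums overlapped (321700 to 376000 TPM in Het, 368400 to 448200 TPM in WT). Those of connective tissue did too (24.99 to 37.75 TPM in Het, 21.4 to 57.25 TPM in WT). The part of these lists in the Het values was not tested. The beta cell genes Pdx1 (72.7 to 183 TPM) and Nkx6-1 (322 to 596 TPM) were present in all 22 samples. Between 14812 and 16133 genes reached 1 TPM in a sample.

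The genes nearest the limits of the rule lay close together. By their second-highest Mixed WT value, Gm9260 (5.45 TPM) and Gm5801 (6.08 TPM) were among the nearest inside. Gm13331 (4.51 TPM), Padi2 (4.51 TPM) and Gm16589 (4.32 TPM) were nearest outside. With a floor of 2 TPM in place of 5 the rule took 82 genes, and with 10 TPM it took 14.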

How the data were processed

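Polyadenylated RNA of isolated islets was measured in 22 libraries, 1 per mouse. The authors deposited TPM values per Ensembl gene for all samples in 1 table, whose columns each sum to 1000000. TPM keeps no read depth, so the depth is unknown and no counting interval was computed. The submitters' processing notes name the mm39 build, STAR 2.7.10b and MultiQC 1.7. The counting tool, the annotation and the use of strand are not given in the sources used here. In addition, 0 value columns were left unused.

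The genes, gene classes and marker lists were chosen with earlier results of these data known, and the nearest copies, the liver list, the chromosome assignment and the correlations over mice with both genes on were defined after these values were seen. The naming rule covers the leading genes and all genes of a listed class, and a few results are not reported here. Gene types, chromosomes, overlaps and transcripts came from GENCODE M21 (GRCm38), and no coordinates of that build were used. Transcripts were compared with blastn of BLAST 2.17.0 (e-value limit 1e-20, same strand).

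Values were tested as log2(TPM + 1) with limma 3.58.1 in R 4.3.3 (4 group means in one fit, eBayes with trend, Benjamini-Hochberg adjustment over 16756 genes with at least 1 TPM in at least 5 of 22 samples, threshold 0.05). The script was tested on simulated data. The alternatives were other limits of the rule and of on, pseudocount 0.1, no filter, median-of-ratios scaling, quantile normalization, a fit of the contrast's groups alone, eBayes without trend and leaving out each replicate.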

Additional observations from a re-analysis of the deposited data

Results flagged for a closer look

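In 5 of 120 groups of mice examined (the genes reported here in the Mixed groups and their nearest copies in all groups), 1 mouse stood apart from the rest, and chance alone flags about 5% of such groups. Eno1, the nearest copy of Eno1b and Gm4735, had 21.2 TPM in Mixed WT 3, below the next value of 31.3 TPM, in the mouse in which Eno1b and Gm4735 had their highest Mixed WT levels of 11.7 and 11.4 TPM. Spg11 had 6.49 TPM in C57 WT 5 against at least 11.8 TPM in the other C57 WT mice. Gm42427, the nearest copy of Gm46223, stood apart at 0.0483 TPM in C57 Het 1 and in Mixed WT 2 (0.275 TPM) and Mixed Het 3 (0.654 TPM), all below 1 TPM.

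For 3 of the nearest copies reported here the difference between Mixed and C57 differed between genotypes in limma's interaction test, which 7.36% of all genes passed. The difference in Het minus that in WT was 1.38 for Rpl29 (log2, adjusted p = 0.0464), 0.66 for Eno1 (adjusted p = 0.0266) and 0.61 for Psmb5 (adjusted p = 0.0300). Rpl29, Eno1 and Psmb5 differed between Mixed WT and C57 WT by -1.19, -0.78 and -0.53 on the log2 scale, and their Het differences were 0.19, -0.13 and 0.07. The WT side of this test is the contrast that chose the genes of which these are copies, so it is not independent of that choice.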

How the results depend on the processing

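No paired analysis was possible because the labels number no replicates, and the numbers used here follow the order of accession. The limits of the rule set how many genes it takes. In place of 27 genes, 82 and 14 were taken with a Mixed WT floor of 2 and 10 TPM, and 78 and 13 of those were on in some but not all Mixed mice (26 as reported). The genes with 5 TPM in at least 2 Mixed Het mice (23) became 15 with a C57 ceiling of 0.5 TPM and 13 with a floor of 10 TPM. The genes on in all 11 Mixed mice (1) became 0 and 6 with a ceiling of 0.5 and 2 TPM, 4 with a floor of 2 TPM, and 5 when on meant 0.5 TPM. Leaving out 1 mouse gave 1 to 3, with 2 or 3 without C57 Het 3, C57 WT 2, Mixed Het 5, Mixed WT 1 or Mixed WT 2. With on at 0.5 TPM, 14 of 25 pairs with a shared chromosome and 1 of 206 others had the same pattern, against 24 of 31 and 0 of 294. With on at 2 TPM these were 23 of 31 and 0 of 294.

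Of the 150 values for single genes in Mixed Het against C57 Het under other settings, 146 kept their direction and side of the threshold, and of the 550 with 1 mouse left out, 545 did. The exceptions were BC023719 and Hmga1b, whose adjusted p without a filter was 0.0622 and 0.0509. The rule held the C57 Het side of these differences below 1 TPM, so a kept direction is no independent support. The number of nearest copies lower in Mixed Het (5) was 3 without a filter and 2 to 5 with 1 mouse left out. Among copies in Mixed WT against C57 WT, the sign turned for differences near 0. Ube2j2 (0.02) was -0.0275 with quantile normalization. With 1 mouse left out, Ube2j2 ranged from -0.123 to 0.107 and Spg11 (-0.01) from -0.181 to 0.0491. The calls of Hmgn2 and Rpl29 were lost in a fit of the WT groups alone (adjusted p = 0.0618 and 0.139), and that of Hmgn2 also without a filter (0.0594), without C57 WT 3 (0.0598) or without Mixed WT 3 (0.0888). Calls were gained with quantile normalization for Norad (0.0170), Rplp0 (0.0351) and A930015D03Rik (0.0467), and the count of copies called lower rose from 7 to 10. Norad was also called with median-of-ratios scaling (0.0360) and without C57 WT 5 (0.0443), and A930015D03Rik without Mixed Het 1 (0.0424) or Mixed WT 3 (0.0499). The causes were not tested.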

Other observations

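Outside the 27 genes, 8 rows below 1 TPM in all C57 samples reached 5 TPM in at least 2 Mixed Het mice without meeting the Mixed WT limit. Gm6505, a processed pseudogene, had 0.0614 and 0 TPM in Mixed Het 3 and 4, the mice in which Lbp, Gm7292, Eif3j2, Ahcyl and Gm3650 were off, and 5.26 to 10.1 TPM in the other Het mice. In Mixed WT, Gm6505 had 4.23, 0.0642, 0.0600, 0.955 and 4.29 TPM. Gm9816, a processed pseudogene, was below 1 TPM in every Mixed WT mouse but 1, with 6.85 TPM in Mixed WT 3, and in Mixed Het only mouse 2 was low, with 0.259 TPM. Gm18860 was on in all 6 Mixed Het mice, from 3.85 to 6.92 TPM, and in Mixed WT only in mouse 4, with 3.18 TPM. Gm6166, the remaining pseudogene, had 0.389 TPM in Mixed Het 3 and up to 15.4 TPM in Mixed Het 5.

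The other 4 were the protein-coding genes Aldh1a3, Anxa10, Dydc2 and Slc39a8. Aldh1a3, a retinaldehyde dehydrogenase, had at most 1.61 TPM in Mixed WT and 0.412 to 16.05 TPM in Mixed Het. Anxa10, an annexin, had at most 0.237 TPM in Mixed WT and 0.547 to 6.47 TPM in Mixed Het. Slc39a8, a zinc and manganese transporter, had 0.602 to 3.98 TPM in Mixed WT and 1.75 to 14.2 TPM in Mixed Het. Dydc2 was on in all 5 Mixed WT mice, from 1.98 to 4.89 TPM, and off in Mixed Het 5 with 0.154 TPM, the mouse in which Gm3375 and Gm5503 were off.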
